A study of Mus musculus with 22 samples.

Results

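The 32 genes described here are the transcription factors of the hypoxia response, the proteins that set their turnover, and their targets outside glycolysis. They were taken by symbol from a list of genes known for these roles, and each was found once, under the same gene identifier, in every count table. They make up 32 of 34866 genes listed for the cultured cells and 32 of 23911 listed for cartilage tissue. The rule uses no expression value, although it was written with earlier results of these data known.

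Hypoxia-inducible factors (HIFs) are dimers of an oxygen-regulated alpha subunit (Hif1a, Epas1 or Hif3a) and the stable partner Arnt. When oxygen is present, the prolyl hydroxylases Egln1, Egln2 and Egln3 mark the alpha subunit, Vhl binds the marked protein and has it degraded, and the asparaginyl hydroxylase Hif1an blocks its coactivator contact. When oxygen is scarce the alpha subunit persists and switches on genes for glucose use, blood vessel growth, pH control and mitochondrial removal. The growth plate has no blood vessels of its own, and Hif1a is known there for the survival of chondrocytes and for their use of glycolysis. RNA counts report the transcripts of these genes and not the amount or activity of the HIF proteins.

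The study compared mouse chondrocytes and cartilage with and without the maintenance DNA methyltransferase Dnmt1. Control samples carried a Dnmt1 gene flanked by loxP sites (Dnmt1 flox). Mutant samples (cKO) came from mice that also carried Prrx1-Cre, a recombinase driven by a promoter active in limb mesenchyme, so that other limb cells descend from recombined cells too. Primary chondrocytes from knee articular cartilage of mice at postnatal day 3 to 5 were sampled untreated (day 0, 3 control and 3 cKO cultures) or after BMP2, labelled 100 ng/µl for 3 days, which drives chondrocytes towards maturation (day 3, 4 control and 4 cKO cultures). Cartilage of mice at postnatal day 5, treated with collagenase to exclude connective tissue, gave 4 control and 4 cKO samples. In each of these cartilage groups replicates 1 and 2 were male and replicates 3 and 4 female. Replicates are labelled biological in the cultures, and no label gives their animals, litters or sex.

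Libraries held 41749327 to 51741478 counts at day 0, 14434197 to 18918714 at day 3 and 1100198 to 1888896 in cartilage. Dnmt1 was lower in every cKO library than in every control library of its setting: 25.7 to 31.3 against 147 to 159 CPM (a count divided by the library's scaled total) at day 0, 11.6 to 36.4 against 64.9 to 83.5 CPM at day 3, and 11.8 to 14.3 against 34.5 to 48.6 CPM in cartilage. The sources used here do not say which exons are floxed, so the 3′ counts of cartilage may lie outside the deleted part. The cell type markers moved with genotype. Summed over 8 chondrocyte markers, of which all were lower in cKO cultures on both days by the test used below, expression was 140340 to 148070 CPM in control and 51537 to 62439 CPM in cKO cultures at day 0, and 99054 to 119710 against 1774 to 18044 CPM at day 3. Summed over 8 muscle markers it was 7.04 to 7.84 against 41.4 to 53.0 CPM at day 0 and 1.83 to 2.79 against 167 to 2012 CPM at day 3, where all 8 were higher. Myod1 was at 0 in the day 0 controls, Myl1 in the day 0 cKO cultures and Actc1 in the day 3 controls. Hypertrophic chondrocyte markers summed to 1249 to 1288 CPM in control cultures at day 0 and 221 to 459 CPM at day 3. Of these markers Col10a1 was lower at day 3 in control cultures (log2 fold change −4.80). Mmp13 (1.73) and Panx3 (1.16) were higher there, and Ihh was not called. The part of these cell types in the results on the hypoxia genes was not tested. At day 3, cKO replicate 4 stood apart from the other cKO cultures: the chi-square per degree of freedom of its counts was 124 to 138 against the other 3, and 7.42 to 10.9 among those 3. Its chondrocyte sum was 1774 CPM (12742 to 18044 in the other 3), its muscle sum 167 CPM (1209 to 2012), its hypertrophic chondrocyte sum 2637 CPM (665 to 1045) and its macrophage and osteoclast sum 389 CPM (107 to 124). Results of the members at day 3 are therefore given with and without it where the call, the direction or the size by over 1.5 times differs. Genes of the other lists are given with it only. In cartilage the control libraries shared pool 1 and the cKO libraries shared pool 2, so that pool and genotype cannot be told apart.

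HIF dimers bind short DNA elements with the core ACGTG or GCGTG. The windows before the starts of 4 genes show how far members differ in this respect. These are the 4 members with a RefSeq promoter entry (build GRCm38.p6) whose genotype effect was called different on the 2 days, by at least 1.5 on the log2 scale, a comparison described further on. Each run gives the 250 bases before the gene's farthest upstream start, 5′ to 3′ on the gene's strand, with matches to ACGTG or GCGTG on either strand in capitals. Egln3 lies at chr12:54203875-54204124, minus strand, Bnip3 at chr7:138909507-138909756, minus strand, Vegfa at chr17:46032378-46032627, minus strand, and Car12 at chr9:66713436-66713685, plus strand.
Egln3: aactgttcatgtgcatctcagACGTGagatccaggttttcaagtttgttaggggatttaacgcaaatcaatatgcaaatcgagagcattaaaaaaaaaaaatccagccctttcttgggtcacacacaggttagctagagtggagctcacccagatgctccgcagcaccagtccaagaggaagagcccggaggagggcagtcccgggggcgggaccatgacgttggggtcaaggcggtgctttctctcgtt
Bnip3: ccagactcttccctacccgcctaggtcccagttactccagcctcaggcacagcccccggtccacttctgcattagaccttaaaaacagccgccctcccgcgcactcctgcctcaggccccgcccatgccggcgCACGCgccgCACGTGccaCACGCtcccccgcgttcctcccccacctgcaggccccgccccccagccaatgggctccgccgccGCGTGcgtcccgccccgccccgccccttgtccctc
Vegfa: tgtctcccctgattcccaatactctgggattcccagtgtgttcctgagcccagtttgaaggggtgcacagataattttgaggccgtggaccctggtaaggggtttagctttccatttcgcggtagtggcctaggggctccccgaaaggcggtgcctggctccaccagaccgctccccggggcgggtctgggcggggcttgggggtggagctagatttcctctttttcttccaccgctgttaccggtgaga
Car12: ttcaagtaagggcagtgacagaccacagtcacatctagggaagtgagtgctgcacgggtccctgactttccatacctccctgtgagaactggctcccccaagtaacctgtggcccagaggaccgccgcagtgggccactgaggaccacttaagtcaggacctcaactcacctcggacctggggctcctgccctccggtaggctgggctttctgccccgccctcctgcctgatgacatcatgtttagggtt

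Bnip3 held 5 matches, of which a pair overlap in a palindrome, CACGTG, that is also the E-box read by other factors. Egln3 held 1 match, ACGTG at 229 bases before its start. Vegfa and Car12 held 0 in this window, which says nothing of elements elsewhere. A RefSeq window was found for 26 of the 32 members, and 20 of these 26 (76.9%) held ACGTG or GCGTG on either strand, against 54.6% of the 11434 genes with a window among those tested at day 0 and 38.6% of all 27025 genes with a window. ACGTG alone was found in 13 of the 26, against 21% of the genes tested at day 0, and CACGTG in 5 (19.2%), against 8.2%. The members' windows also held more CpG dinucleotides, with a median of 19.5 (5 to 51) against 15, and both cores contain a CpG. Bhlhe40, Bnip3l, Epas1, Hmox1, Kdm4b and Ndrg1 had no entry.

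Across the members, the genotype effect pointed mainly downwards in untreated cultures and mainly upwards after BMP2. At day 0, 8 members were higher and 17 lower in cKO cultures of 32 tested (edgeR's quasi-likelihood test, Benjamini-Hochberg adjusted p under 0.05 over all genes tested). That is 78.1% called, where 64.5% of all 15530 genes tested were called, 33.0% higher and 31.6% lower. The median log2 fold change (cKO over control) was −0.16 over the members and 0.01 over all genes. At day 3, 13 members were higher and 5 lower of 31 tested (58.1%), where 48.1% of all 13924 genes were called, 25.5% higher and 22.6% lower, with a median of 0.36 over the members and 0.01 over all genes. Without cKO replicate 4, 16 were higher and 5 lower (55.1% of all genes called), and without control replicate 2 the count was 11 (40.1% of all genes called). In 1 fit of all 14 cultures the day 0 count was 16 (42% of all genes called), and Epas1, Arnt, Rora, Car9, Car12, Fam162a, Gbe1, Hmox1 and Wsb1 lost their calls (adjusted p 0.0536 to 0.703). In cartilage 1 member was higher and 3 lower of 29 tested (13.8%), where 6.19% of all 8793 genes were called, 3.15% higher and 3.04% lower, with medians of −0.17 and 0.01. Groups did not overlap for 23 of the 25 members called at day 0, where 98.8% of all genes called had groups apart, for 15 of the 18 called at day 3 (91.7% of all genes called) and for 3 of the 4 called in cartilage (87.1% of all genes called). In bulk RNA, fewer cells that express a gene and less RNA per cell cannot be told apart.

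**Figure D1:**
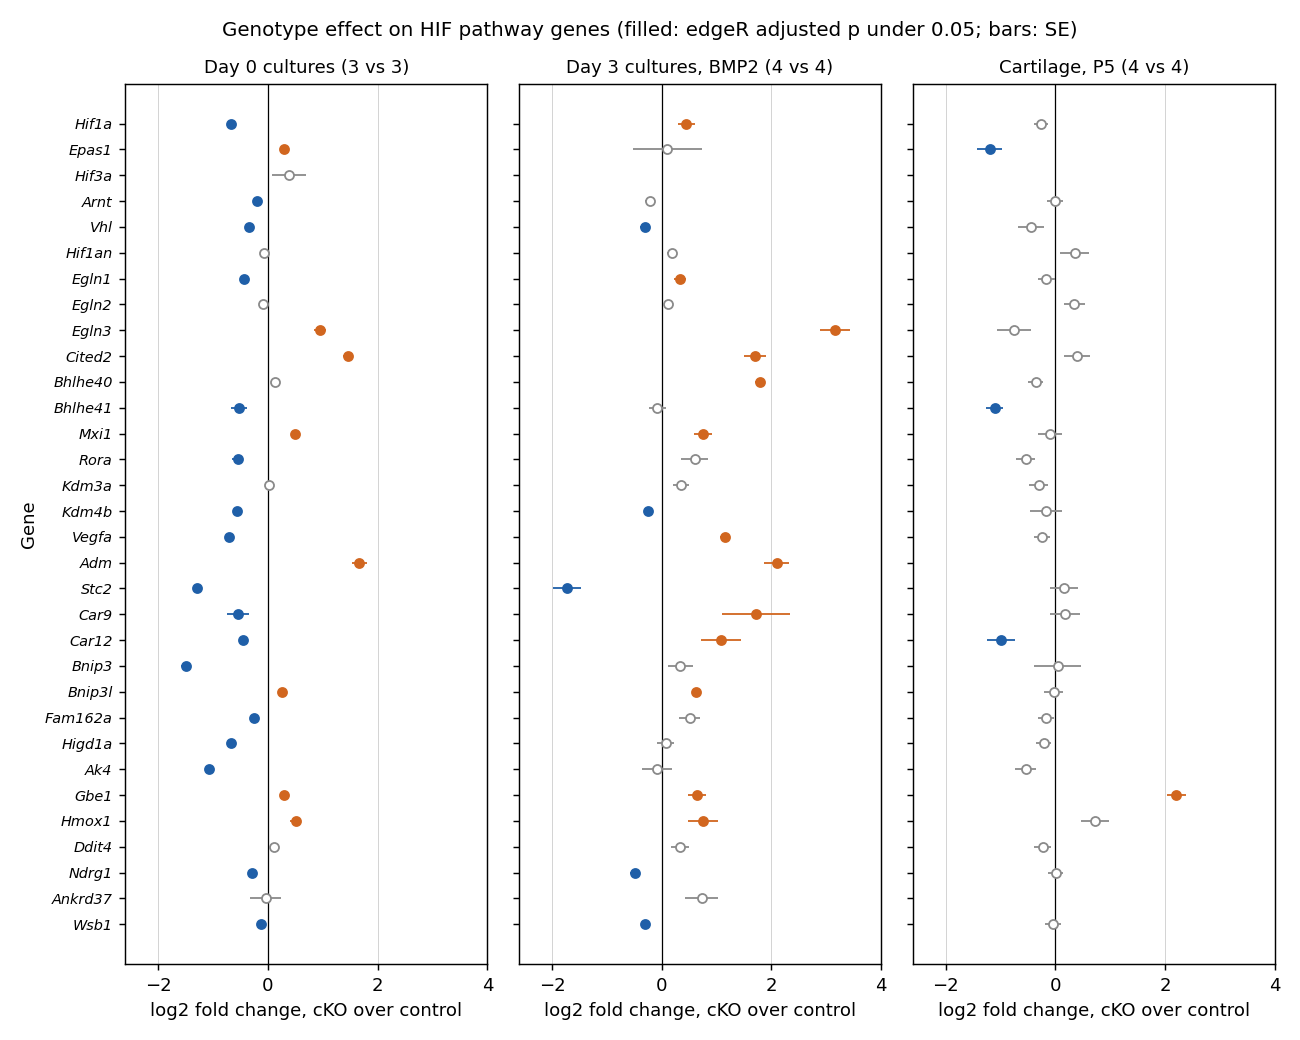
Log2 fold change of cKO over control (x axis) for the 32 hypoxia genes (rows, ordered by role) in day 0 cultures, day 3 cultures and cartilage. Points are edgeR estimates, bars are SE, filled points have an adjusted p under 0.05 and missing points were not tested. At day 0, 17 filled points lie left of 0 and 8 right of it, and at day 3, 5 lie left and 13 right.

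Among the alpha subunits, Hif1a carried far more transcript than the other members of its family. Per kb of exon it stood at 94.8 ± 2.17 CPM (SD, n = 3) in control cultures at day 0, next to 2.72 ± 0.103 for Epas1 and 0.085 ± 0.025 for Hif3a, and only Hmox1 ranked above it among the members (102 ± 1.68 CPM per kb). At day 0 Hif1a was at 544, 565 and 568 CPM in the control cultures and at 359, 378 and 310.4 CPM in the cKO cultures. Every cKO culture was below every control culture, with means of 559 ± 12.8 and 349 ± 34.7 CPM (mean ± SD of 3 each; log2 fold change −0.68, SE 0.0654, adjusted p 1.82e-05). At day 3 Hif1a had 250.4, 248, 215 and 267 CPM in control and 386, 351, 365 and 238 CPM in cKO cultures. Here the order was the opposite, apart from cKO replicate 4, which lay within the control range (log2 fold change 0.45, SE 0.151, adjusted p 0.0361). This call was kept without cKO replicate 4, at 0.58 (adjusted p 0.00031), and lost without any other single library (adjusted p 0.0562 to 0.0931).

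Epas1 encodes the alpha subunit that is abundant in endothelium and hypertrophic cartilage. At day 0 Epas1 was at 14.97, 15.9 and 14.8 CPM in the control cultures and at 17.7, 17.5 and 20.9 CPM in the cKO cultures. The difference was small and without overlap (log2 fold change 0.30, SE 0.0764, adjusted p 0.00705). At day 3 Epas1 had 11.1, 20.8, 27.6 and 14.1 CPM in control and 8.62, 7.72, 11.1 and 52.01 CPM in cKO cultures. In the cKO group 3 libraries lay below every control library and replicate 4 lay above them all, with a log2 fold change of 0.10 (SE 0.634, adjusted p 0.906). Without replicate 4 Epas1 was lower in cKO cultures, at −1.02 (adjusted p 0.0153). Hif3a, whose product can act as an inhibitor of the other factors, was barely detected, at 0.44 to 0.76 CPM in control and 0.54 to 1.01 CPM in cKO cultures at day 0, a log2 fold change of 0.39 (adjusted p 0.303), and was not tested at day 3 or in cartilage. Arnt, the partner subunit, was slightly lower at day 0, at −0.20 (adjusted p 0.000632), and had −0.22 (adjusted p 0.0555) at day 3.

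The genes that destroy the alpha subunits did not move as a unit. Vhl, the recognition subunit of the ubiquitin ligase, was lower in cKO cultures on both days. At day 0 Vhl was at 27.3, 28.1 and 27.4 CPM in the control cultures and at 21.3, 22.99 and 20.6 CPM in the cKO cultures. At day 3 Vhl had 36.5, 40.5, 34.6 and 39.5 CPM in control and 31.8, 32.8, 30.4 and 26.6 CPM in cKO cultures. On neither day did the groups overlap (log2 fold change −0.35, SE 0.0521, adjusted p 0.00028, at day 0, and −0.31, SE 0.0883, adjusted p 0.0184, at day 3). The day 3 call was lost without control replicate 2, at −0.28 (adjusted p 0.0525).

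Egln3, the hydroxylase whose own gene is a HIF target, had the largest day 3 effect of the members tested. At day 0 Egln3 was at 2.66, 2.84 and 2.303 CPM in the control cultures and at 5.204, 5.17 and 4.71 CPM in the cKO cultures. That was a rise from 2.603 ± 0.275 to 5.03 ± 0.275 CPM (mean ± SD of 3 each; log2 fold change 0.95, SE 0.115, adjusted p 7.92e-05). At day 3 Egln3 had 2.46, 1.78, 1.55 and 1.55 CPM in control and 17.7, 17.97, 20.7 and 9.56 CPM in cKO cultures. The lowest cKO culture, replicate 4, was still above the highest control, and the log2 fold change was 3.17 (SE 0.276, adjusted p 5.6e-05). Egln1, the main hydroxylase of normoxic cells, was lower in cKO cultures at day 0, at −0.44 (adjusted p 0.000237), and higher at day 3, at 0.33 (adjusted p 0.0318). Its day 3 call was lost without any single control library and without cKO replicate 1 or 3 (adjusted p 0.0533 to 0.0847). Egln2 and Hif1an were not called in either culture, with log2 fold changes of −0.086 and −0.068 at day 0 and 0.11 and 0.18 at day 3. Among 17 other genes of HIF turnover and coactivation, 6 were higher and 6 lower of 16 tested at day 0. Over all genes tested there, 33.0% were called higher and 31.6% lower. At day 3, 4 were higher and 3 lower of 15 tested, where 25.5% of all genes were called higher and 22.6% lower. The median log2 fold changes of this list were 0.059 and −0.002. In cartilage 0 of its 13 genes tested were called, where 6.19% of all genes were. Arnt2, an alternative partner subunit, was higher on both days, at 0.83 (adjusted p 3.44e-05) and 1.71 (adjusted p 0.000105). So was the chaperone gene Hsp90aa1, at 1.03 (adjusted p 1.11e-07) and 0.96 (adjusted p 0.000456), while Siah2, a ubiquitin ligase for the hydroxylases, was lower, at −0.61 (adjusted p 1.14e-05) and −0.80 (adjusted p 0.00152).

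Cited2, a HIF target whose product competes with the alpha subunits for their coactivators, was higher in cKO cultures on both days. At day 0 Cited2 was at 146, 168 and 175 CPM in the control cultures and at 491, 427 and 420.2 CPM in the cKO cultures. At day 3 Cited2 had 65.04, 72.3, 88.5 and 62.6 CPM in control and 182, 204, 225 and 329.6 CPM in cKO cultures. The groups were apart on both days, with log2 fold changes of 1.45 (SE 0.0780, adjusted p 5.71e-07) and 1.703 (SE 0.199, adjusted p 0.000243). Replicate 4 was the highest of the day 3 cKO cultures, and omitting it gave 1.49 (adjusted p 9.74e-06).

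The transcription factor targets split by gene. Bhlhe40, a repressor that is also part of the circadian clock, did not pass the test at day 0 and rose at day 3. At day 0 Bhlhe40 was at 12.9, 13.1 and 13.7 CPM in the control cultures and at 16.1, 13.2 and 14.1 CPM in the cKO cultures, ranges that overlap (log2 fold change 0.13, SE 0.0789, adjusted p 0.186). At day 3 Bhlhe40 had 11.9, 13.3, 13.8 and 12.7 CPM in control and 47.3, 41.6, 44.6 and 45.1 CPM in cKO cultures. All 4 cKO cultures, replicate 4 included, were at least 41.6 CPM, and no control passed 13.8 CPM (log2 fold change 1.79, SE 0.0769, adjusted p 2.03e-06). Its relative Bhlhe41 was lower at day 0 (log2 fold change −0.52, SE 0.143, adjusted p 0.0104). Its control cultures had 9.25, 12.4 and 10.7 CPM and its cKO cultures 8.47, 7.99 and 6.05 CPM. At day 3 Bhlhe41 had 12.3, 14.99, 17.3 and 18.995 CPM in control and 17.1, 12.9, 14.7 and 15.7 CPM in cKO cultures, which overlap (log2 fold change −0.076, adjusted p 0.702). Mxi1, which opposes Myc, was higher on both days, at 0.49 (adjusted p 0.000169) and 0.75 (adjusted p 0.00525). Rora, a nuclear receptor, was lower at day 0, at −0.56 (adjusted p 0.000662), and had 0.60 (adjusted p 0.0702) at day 3. In cKO replicate 4 Rora stood at 48.8 CPM, against 25.0 to 27.6 CPM in the other cKO cultures and 16.6 to 25.8 CPM in the controls, and omitting that library gave 0.31 (adjusted p 0.0925). Of the histone demethylases, Kdm4b was lower on both days, at −0.57 (adjusted p 2.95e-05) and −0.24 (adjusted p 0.0376), while Kdm3a was called on neither (0.011 and 0.36). The day 3 call of Kdm4b was kept only without control replicate 1, of the 8 libraries left out in turn (adjusted p 0.0506 to 0.079 in the others).

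Vegfa, the growth factor that draws vessels into cartilage, changed sides between the days. At day 0 Vegfa was at 100.4, 106 and 106 CPM in the control cultures and at 62.4, 68.96 and 61.2 CPM in the cKO cultures. The cKO mean was 64.2 ± 4.17 against 104 ± 3.46 CPM (mean ± SD of 3 each; log2 fold change −0.70, SE 0.0486, adjusted p 2.33e-06). At day 3 Vegfa had 68.3, 70.9, 58.7 and 76.05 CPM in control and 157, 151, 148 and 153 CPM in cKO cultures. All 4 cKO cultures had at least 148 CPM against at most 76.0 CPM in the controls, means of 152 ± 4.16 and 68.5 ± 7.29 CPM (mean ± SD of 4 each; log2 fold change 1.15, SE 0.0844, adjusted p 2.66e-05).

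The other secreted products went one way each. Adm, the vasodilator adrenomedullin, was higher in cKO cultures on both days. At day 0 Adm was at 4.93, 4.41 and 3.32 CPM in the control cultures and at 14.8, 13.1 and 12.4 CPM in the cKO cultures. At day 3 Adm had 3.51, 7.97, 6.94 and 6.08 CPM in control and 30.8, 21.95, 26.4 and 25.97 CPM in cKO cultures. The groups did not overlap on either day, with log2 fold changes of 1.67 (SE 0.137, adjusted p 6.56e-06) and 2.09 (SE 0.230, adjusted p 0.000186). Stc2, a stanniocalcin that restrains growth through the IGF system and is also a target of the unfolded protein response, was lower in cKO cultures on both days. At day 0 Stc2 was at 212, 218 and 219 CPM in the control cultures and at 85.03, 96.6 and 84.3 CPM in the cKO cultures. At day 3 Stc2 had 86.6, 70.05, 42.9 and 94.2 CPM in control and 23.4, 21.2, 27.4 and 16.8 CPM in cKO cultures. Here too the groups were apart, at −1.29 (SE 0.0510, adjusted p 9.16e-08) and −1.72 (SE 0.249, adjusted p 0.000723).

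Car9 and Car12, the carbonic anhydrases at the cell surface that handle acid from glycolysis, were lower at day 0 and higher at day 3, with less certainty than Vegfa. At day 0 Car9 was at 6.67, 8.02 and 5.65 CPM in the control cultures and at 4.21, 6.095 and 3.64 CPM in the cKO cultures. These ranges overlap (log2 fold change −0.55, SE 0.195, adjusted p 0.0333), and the call was lost without control replicate 1 or 2 or cKO replicate 1 or 3 (adjusted p 0.0702 to 0.127). At day 3 Car9 had 1.76, 3.68, 3.53 and 5.002 CPM in control and 19.5, 7.62, 16.99 and 2.08 CPM in cKO cultures. Replicates 1 to 3 of the cKO group lay above every control and replicate 4 lay among the controls (log2 fold change 1.72, SE 0.618, adjusted p 0.0467). Without replicate 4 Car9 stood at 2.06 (adjusted p 0.00121), and without any other single library the call was lost (adjusted p 0.0561 to 0.121).

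At day 0 Car12 was at 29.9, 30.8 and 29.8 CPM in the control cultures and at 22.4, 24.1 and 19.4 CPM in the cKO cultures. All cKO values were below all control values (log2 fold change −0.46, SE 0.0735, adjusted p 0.000475). At day 3 Car12 had 3.44, 3.68, 1.67 and 5.14 CPM in control and 9.38, 7.82, 8.41 and 3.798 CPM in cKO cultures. Only cKO replicate 4 fell within the control range (log2 fold change 1.08, SE 0.370, adjusted p 0.0393). Without it Car12 had 1.29 (adjusted p 0.00414), while the call was lost without control replicate 1, 2 or 3 or cKO replicate 1, 2 or 3 (adjusted p 0.0708 to 0.0964).

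Targets that act on mitochondria included the sharpest fall at day 0. Bnip3 encodes a receptor for the removal of mitochondria. At day 0 Bnip3 was at 109, 112 and 111 CPM in the control cultures and at 44.3, 41.8 and 32.3 CPM in the cKO cultures. The mean fell from 111 ± 1.66 to 39.4 ± 6.34 CPM (mean ± SD of 3 each; log2 fold change −1.49, SE 0.0966, adjusted p 1.59e-06). At day 3 Bnip3 had 76.1, 78.5, 67.5 and 107 CPM in control and 129, 102, 124 and 61.9 CPM in cKO cultures. These groups overlap through control replicate 4 and cKO replicates 2 and 4 (log2 fold change 0.34, SE 0.234, adjusted p 0.26), and omitting cKO replicate 4 gave 0.52 (adjusted p 0.0163). Its relative Bnip3l was instead higher on both days, at 0.25 (adjusted p 0.00271) and 0.63 (adjusted p 0.000509). Higd1a, which stabilises respiratory complexes, was lower at day 0, at −0.66 (adjusted p 1.51e-06), and had 0.071 (adjusted p 0.74) at day 3, or 0.15 (adjusted p 0.437) without cKO replicate 4. Fam162a, a mitochondrial protein linked to cell death, was lower at day 0, at −0.26 (adjusted p 0.00119), and at day 3 had 0.51 (adjusted p 0.055), or 0.66 (adjusted p 0.00225) without cKO replicate 4. Bnip3l has a near-identical processed copy in the annotation, Bnip3l-ps, which could share its reads.

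**Figure D2:**
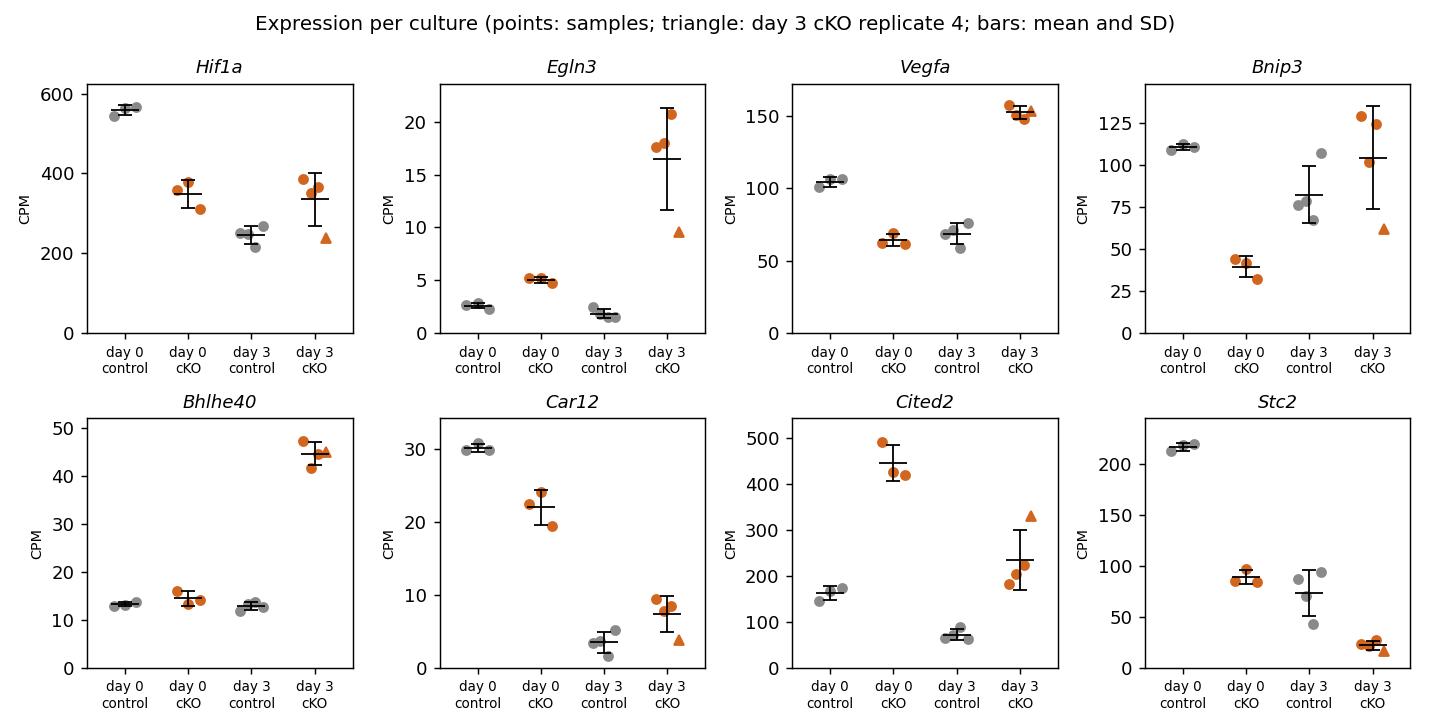
Expression in CPM (y axes, linear, from 0) of 8 hypoxia genes in each culture, by day and genotype (x axes). Points are cultures, the triangle is day 3 cKO replicate 4, and bars show mean and SD (n = 3 at day 0, n = 4 at day 3). Vegfa is lower in cKO than control cultures at day 0 (61.2 to 69.0 against 100.4 to 106 CPM) and higher at day 3 (148 to 157 against 58.7 to 76.0 CPM), while Stc2 is lower and Cited2 higher on both days.

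The metabolic pair moved apart. Ak4, an adenylate kinase of the mitochondrial matrix, was lower at day 0. At day 0 Ak4 was at 116, 118 and 121 CPM in the control cultures and at 54.1, 63.5 and 51.9 CPM in the cKO cultures (log2 fold change −1.07, SE 0.0668, adjusted p 1.29e-06). At day 3 Ak4 had 26.5, 30.6, 24.5 and 43.4 CPM in control and 36.6, 27.6, 36.9 and 16.8 CPM in cKO cultures, which overlap (log2 fold change −0.084, adjusted p 0.819). Omitting cKO replicate 4 turned the direction, to 0.10 (adjusted p 0.684). Gbe1, the branching enzyme of glycogen synthesis, was higher on both days. At day 0 Gbe1 was at 14.9, 14.8 and 15.3 CPM in the control cultures and at 19.02, 16.5 and 19.3 CPM in the cKO cultures (log2 fold change 0.29, SE 0.0676, adjusted p 0.00465). At day 3 Gbe1 had 15.9, 19.1, 17.8 and 19.8 CPM in control and 28.7, 24.2, 22.4 and 38.5 CPM in cKO cultures, with replicate 4 the highest (log2 fold change 0.65, SE 0.171, adjusted p 0.0137). Omitting it gave 0.46 (adjusted p 0.00768).

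Of the stress targets, Hmox1, the heme-degrading oxygenase that is also a target of the NRF2 pathway, was higher on both days, at 0.50 (adjusted p 0.00116) and 0.76 (adjusted p 0.0471). In cKO replicate 4 it reached 455 CPM, against 194 to 219 CPM in the other day 3 cKO cultures and 128 to 177 CPM in the controls, and omitting that library gave 0.38 (adjusted p 0.0161). The day 3 call was lost without any single control library and without cKO replicate 1 (adjusted p 0.0507 to 0.116). Ndrg1, a stress-responsive growth suppressor, was lower on both days, at −0.30 (adjusted p 0.000257) and −0.49 (adjusted p 0.00294). So was Wsb1, part of a ubiquitin ligase, at −0.12 (adjusted p 0.0429) and −0.31 (adjusted p 0.0076), although its groups overlap at day 0 and the call there was lost without control replicate 2 or 3 or cKO replicate 1 or 2 (adjusted p 0.0602 to 0.131). Ddit4, an inhibitor of mTORC1, was called on neither day (0.11 and 0.34), although it was called at day 3 without cKO replicate 4, at 0.43 (adjusted p 0.032). Ankrd37 was not called either (−0.042 and 0.73, the latter 0.46 (adjusted p 0.177) without that library). Ankrd37 is uncertain: at day 0 it had 0.48 to 0.84 CPM, it shares exonic sequence with Ufsp2 on the other strand (up to 56.6 CPM), and whether the counting used strand is not given in the sources used here.

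Grouped by their calls on the 2 days, 7 members were higher on both days (Egln3, Cited2, Mxi1, Adm, Bnip3l, Gbe1 and Hmox1) and 5 lower on both (Vhl, Kdm4b, Stc2, Ndrg1 and Wsb1). Another 5 were lower at day 0 and higher at day 3 (Hif1a, Egln1, Vegfa, Car9 and Car12). Of these 5, Vegfa alone was called on both days in every alternative fit. A further 7 were lower at day 0 and not called at day 3 (Arnt, Bhlhe41, Rora, Bnip3, Fam162a, Higd1a and Ak4). Bhlhe40 was called at day 3 alone and Epas1 at day 0 alone. Hif1an, Egln2, Kdm3a, Ddit4 and Ankrd37 were called on neither day, and Hif3a was not called at day 0 and not tested at day 3.

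Whether the genotype effect itself differed between the days was tested in 1 fit of all 14 cultures. The effect was higher at day 3 than at day 0 for 10 members and lower for 0 of 32 tested (31.2%), where 16.8% of all 14909 genes were called, 9.94% higher and 6.89% lower. The median difference was 0.38 over the members and 0.02 over all genes. At an unadjusted p under 0.05 the edgeR test gave 15 members higher and 0 lower. Over all 14909 genes it gave 2563 higher and 2035 lower (30.8% in either direction). DESeq2 called 15 members higher and 0 lower, where it called 22.7% of all genes in either direction. The 10 were Egln3, at 2.21 (SE 0.338, adjusted p 0.0011), Vegfa, at 1.83 (SE 0.110, adjusted p 4.88e-06), Bnip3, at 1.81 (SE 0.317, adjusted p 0.0024), Bhlhe40, at 1.64 (SE 0.108, adjusted p 5.4e-06), Car12, at 1.53 (SE 0.418, adjusted p 0.0255), Rora, at 1.13 (SE 0.301, adjusted p 0.0228), Hif1a, at 1.12 (SE 0.205, adjusted p 0.00326), Egln1, at 0.75 (SE 0.148, adjusted p 0.00478), Higd1a, at 0.72 (SE 0.206, adjusted p 0.0309), and Bnip3l, at 0.36 (SE 0.103, adjusted p 0.0308). They reach a positive difference in different ways. For Hif1a, Egln1, Vegfa and Car12 a fall turned into a rise, and for Bnip3, Rora and Higd1a a fall was followed by no call. For Egln3 and Bnip3l a rise was larger at day 3, and Bhlhe40 had a rise at day 3 and no call at day 0. Car9 had a larger difference than Egln3 with a larger SE and was not called, at 2.25 (SE 0.771, adjusted p 0.0635).

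Leaving out day 3 cKO replicate 4 raised the count to 15 higher and 2 lower, and the share of all genes called from 16.8% to 27.3%. The additions included Car9, at 2.602 (adjusted p 0.00106), Ak4, at 1.17 (adjusted p 0.00201), and Fam162a, at 0.91 (adjusted p 0.000752), and the 2 with a lower effect at day 3 were Epas1, at −1.32 (adjusted p 0.00991), and Ndrg1, at −0.29 (adjusted p 0.0208). Without day 0 control replicate 2, or without day 0 cKO replicate 3, the count was 6, where 10.4% and 10.5% of all genes were called. Hif1a, Egln1, Egln3, Bhlhe40, Vegfa and Bnip3 were called in all 18 alternatives. Rora lost its call without either of those 2 libraries (adjusted p 0.0581 to 0.0656). Car12 lost it without any single day 0 control or without day 0 cKO replicate 1 or 3 (adjusted p 0.0553 to 0.0688). Bnip3l lost it without day 0 control replicate 2 or 3, day 0 cKO replicate 2 or 3, day 3 control replicate 2 or day 3 cKO replicate 1 or 2 (adjusted p 0.0512 to 0.0868). Higd1a lost it without any single day 0 library, without day 3 control replicate 1 and without day 3 cKO replicate 1 or 3 (adjusted p 0.0502 to 0.0778).

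**Figure D3:**
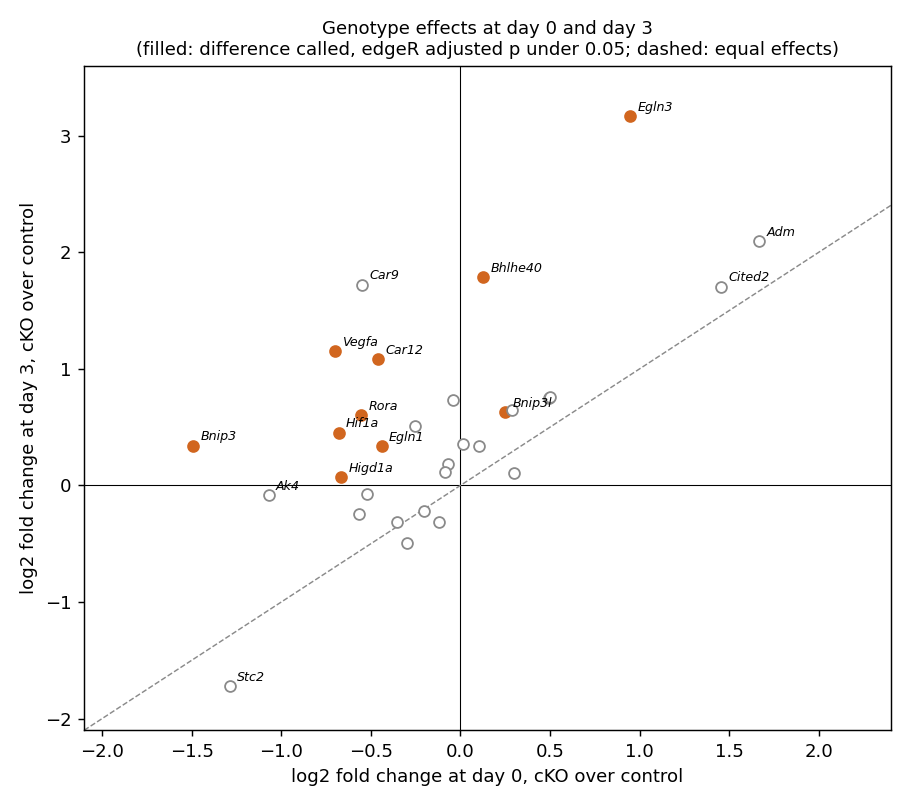
Log2 fold change of cKO over control at day 0 (x axis) and at day 3 (y axis) for the 31 hypoxia genes tested on both days. The 10 filled points have an effect that differs between the days (edgeR adjusted p under 0.05), the dashed line marks equal effects, and the genes nearest the centre are unlabelled. Filled points all lie above the dashed line, with Vegfa at −0.70 and 1.15 and Bnip3 at −1.49 and 0.34.

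The same 14 cultures show on which side the change with time lay. Day, BMP2, time in culture and count table changed together, so the share of each cannot be told apart, and these changes use the same libraries as the difference just described. In control cultures 5 members were higher and 14 lower at day 3 than at day 0 (59.4%), where 56.9% of all genes passed, 28.1% upwards and 28.8% downwards. In cKO cultures 16 were higher and 8 lower (75.0%), where 62.2% of all genes passed, 32.4% upwards and 29.8% downwards. The members' medians were −0.35 in control and 0.33 in cKO cultures. Over all genes the medians were 0 and 0.02. The groups did not overlap for 17 of the 19 members called in control cultures (96.3% of all genes called) and 23 of the 24 called in cKO cultures (93.3% of all genes called). The fit shares its estimate of spread across all groups, so a cKO library can change the calls in control cultures. Without day 3 cKO replicate 4 the counts were 5 higher and 17 lower in control (65.9% of all genes called). In cKO cultures they were then 18 higher and 9 lower (67.2% of all genes called). Control cultures fitted alone gave 5 higher and 16 lower of 31 tested (66.5% of all genes called). Fitted alone, cKO cultures gave 16 higher and 7 lower of 32 (57.1% of all genes called).

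Vegfa and Egln1 were lower at day 3 in control cultures and higher in cKO cultures. On a scale common to the 14 cultures, Vegfa went from 109 ± 3.63 to 66.7 ± 7.27 CPM in control cultures, a log2 change of −0.71 (SE 0.0768, adjusted p 6.79e-06). It went from 67.04 ± 4.31 to 147 ± 4.12 CPM in cKO cultures, a log2 change of 1.13 (SE 0.0792, adjusted p 1.89e-07). Egln1 changed by −0.40 (adjusted p 0.00558) and 0.36 (adjusted p 0.00951), the latter lost without day 0 cKO replicate 3, at 0.28 (adjusted p 0.0567).

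Hif1a, Hif1an, Fam162a and Higd1a fell in control cultures and were not called in cKO cultures, and of these Hif1an and Fam162a were not called in the test of the difference. Without day 3 cKO replicate 4, Fam162a was higher at day 3 in cKO cultures, at 0.35 (adjusted p 0.013). Hif1a, for example, went from 582 ± 13.5 to 239 ± 22.05 CPM in control (log2 fold change −1.29, adjusted p 8.54e-06) and from 364 ± 35.9 to 324 ± 67.4 CPM in cKO cultures (log2 fold change −0.17, adjusted p 0.32). For 9 members the call was a rise in cKO cultures with no call in control cultures: Egln3, Bhlhe40, Rora, Kdm3a, Kdm4b, Adm, Bnip3, Gbe1 and Ankrd37. No call does not mean no change in control cultures, because the fit shares its spread across all groups. Of these 9, Egln3, Bhlhe40 and Bnip3 were lower in every day 3 control than in every day 0 control, and the others overlapped. Bhlhe40 went from 15.1 ± 1.54 to 42.999 ± 2.05 CPM in cKO cultures (log2 fold change 1.51, adjusted p 1.97e-08) and from 13.8 ± 0.411 to 12.6 ± 0.746 CPM in control cultures (log2 fold change −0.13, adjusted p 0.168). Bnip3 rose in cKO cultures from 41.2 ± 6.57 to 101 ± 30.2 CPM (log2 fold change 1.29, adjusted p 0.00033), beside 115 ± 1.68 and 80.1 ± 16.8 CPM in control cultures (log2 fold change −0.53, adjusted p 0.0573). Not every one of these 9 differed between genotypes in its change: Kdm3a, Kdm4b, Adm, Gbe1 and Ankrd37 were not called in the test of the difference. Without day 3 cKO replicate 4, Egln3 and Bnip3 were also called lower in control cultures, at −0.61 (adjusted p 0.00326) and −0.53 (adjusted p 0.00409), as was Car9, at −1.05 (adjusted p 0.0128), with 1.55 (adjusted p 0.000816) in cKO cultures. Epas1 and Hmox1 were then lower in cKO cultures, at −1.14 (adjusted p 0.0011) and −0.38 (adjusted p 0.0123).

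The remaining calls with time had the same direction in both genotypes. Hif3a, Egln2, Cited2, Stc2, Car12, Ak4, Ndrg1 and Wsb1 were lower at day 3 in both, and Vhl, Bhlhe41, Mxi1, Bnip3l and Ddit4 higher in both. Stc2 fell from 225 ± 4.197 to 71.6 ± 22.3 CPM in control (log2 fold change −1.66, adjusted p 2.89e-05) and from 92.6 ± 7.14 to 21.4 ± 4.44 CPM in cKO cultures (log2 fold change −2.11, adjusted p 4.45e-06). Car12 fell from 31.4 ± 0.547 to 3.39 ± 1.39 CPM (log2 fold change −3.21, adjusted p 2.25e-06) and from 22.9 ± 2.45 to 7.11 ± 2.42 CPM (log2 fold change −1.69, adjusted p 0.000213), a smaller fall in cKO cultures by the test of the difference. Hif3a had at most 2 counts in every day 3 control library and was at least 2.63-fold lower there than in day 0 controls, taking 3 counts per library as the floor. Of the calls named here, that of Bhlhe41 in control cultures was lost without day 0 control replicate 1 or 3 or day 3 control replicate 3 or 4 (adjusted p 0.0612 to 0.117). Ddit4 in control cultures lost its call without any single day 0 control, day 0 cKO replicate 2 or day 3 control replicate 2 or 4 (adjusted p 0.0515 to 0.115). Egln2 in cKO cultures lost it without day 0 cKO replicate 1 or 2 or day 3 cKO replicate 4 (adjusted p 0.0565 to 0.102). Hif3a in cKO cultures kept it in 4 of the 14 fits with a library left out, those without day 0 cKO replicate 3, day 3 control replicate 3 or 4 or day 3 cKO replicate 4.

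**Figure D4:**
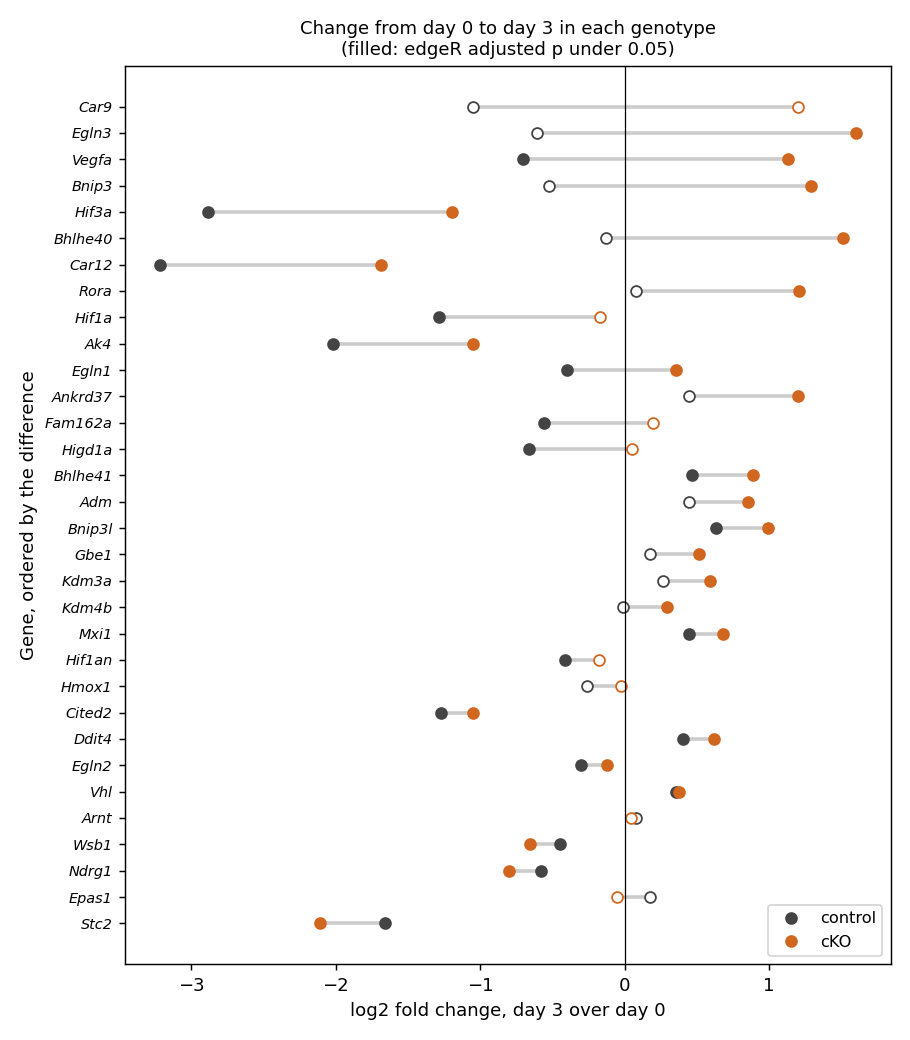
Log2 fold change from day 0 to day 3 (x axis) in control (dark) and cKO (orange) cultures for the 32 hypoxia genes (rows, ordered by the difference between the genotypes). Points are edgeR estimates and filled points have an adjusted p under 0.05. The medians are −0.35 in control and 0.33 in cKO cultures, and Vegfa and Egln1 are filled on opposite sides of 0.

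In cartilage, at the lowest depth of the 3 settings, Gbe1, Epas1, Bhlhe41 and Car12 were called, and of these only Gbe1 was higher in cKO tissue. Gbe1 was at 19.5, 13.7, 19.3 and 15.4 CPM in the control samples and at 89.004, 72.6, 77.6 and 74.1 CPM in the cKO samples. Its mean went from 16.97 ± 2.89 to 78.3 ± 7.43 CPM (mean ± SD of 4 each; log2 fold change 2.21, SE 0.169, adjusted p 4.02e-07), and the deposited estimated counts gave 13.6 ± 2.86 and 62.6 ± 5.07 CPM, a log2 fold change of 2.19. Gbe1 was thus higher in cKO samples in each of the 3 settings.

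Epas1 was at 32.3, 31.6, 28.4 and 42.7 CPM in control and 17.6, 16.6, 16.1 and 9.48 CPM in cKO cartilage, with no overlap (log2 fold change −1.197, SE 0.230, adjusted p 0.00452; −1.29 in the estimated counts). Among cell types known to express Epas1, the summed endothelial markers were 66.0 to 124 CPM in control and 43.9 to 93.6 CPM in cKO cartilage (0 of 4 tested called), and the hypertrophic chondrocyte markers 578 to 1181 against 74.9 to 576 CPM (4 of 4 lower). The chondrocyte sum was 67099 to 100090 against 32200 to 61376 CPM (2 of 8 lower). The erythroid sum was 167 to 917 against 13.4 to 389 CPM (4 of 4 tested lower). Alas2 and Slc4a1 were at 0 in every cKO library and had at most 3 counts in any control library. The macrophage and osteoclast sum was 143 to 486 against 67.2 to 138 CPM (3 of 3 tested lower). The fibroblast and tendon sum was 32655 to 63518 against 17362 to 39906 CPM (0 of 6 called). The muscle sum was 10.1 to 14.3 against 14.6 to 59.5 CPM. Des, the 1 muscle marker tested, was higher (log2 fold change 1.44, adjusted p 0.0241). The part of these cells in these calls was not tested.

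Bhlhe41 was at 146, 163, 173 and 157 CPM in control and 87.3, 64.7, 84.7 and 59.4 CPM in cKO cartilage, again without overlap (log2 fold change −1.11, SE 0.148, adjusted p 0.000178; −1.03 (adjusted p 0.01) in the estimated counts). Car12 was at 31.5, 53.8, 45.9 and 38.1 CPM in control and 16.8, 11.4, 33.01 and 24.1 CPM in cKO samples, where cKO replicate 3 lay within the control range (log2 fold change −0.99, SE 0.251, adjusted p 0.0285). That call was lost in the estimated counts, at −0.37 (adjusted p 0.143), and without control replicate 2 or cKO replicate 1, 2 or 4 (adjusted p 0.061 to 0.0813).

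**Figure D5:**
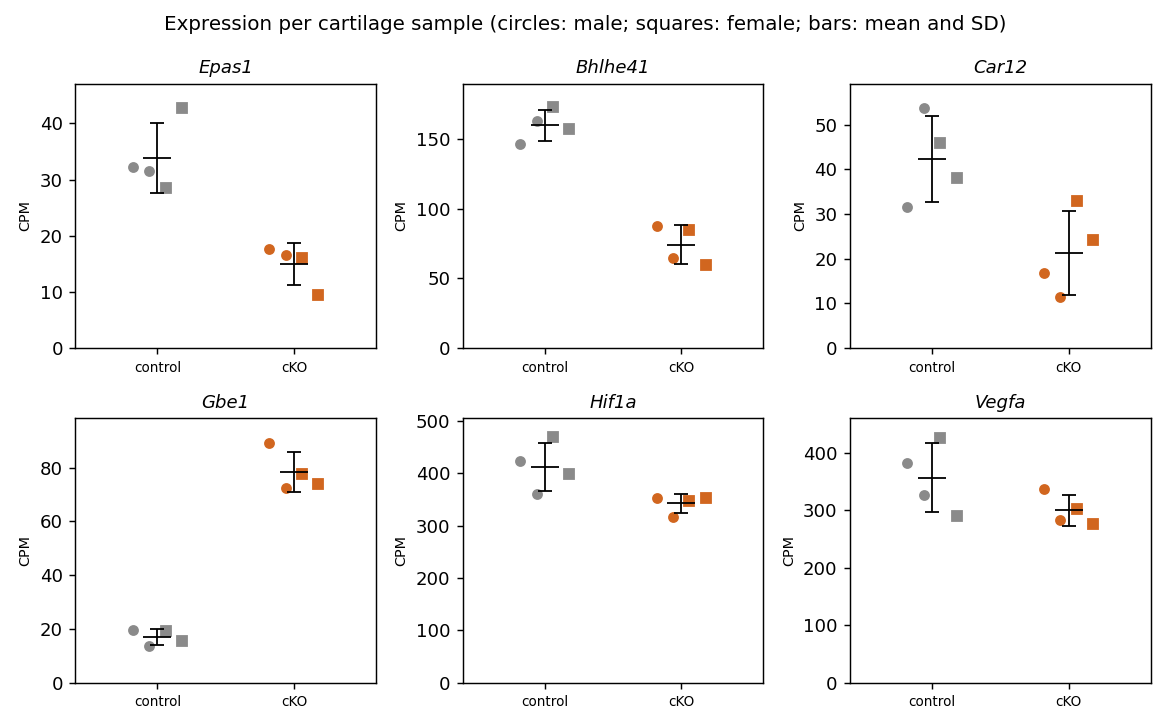
Expression in CPM (y axes, linear, from 0) of 6 hypoxia genes in each cartilage sample, by genotype (x axes). Circles are male, squares female, and bars show mean and SD (n = 4). Gbe1 lies at 13.7 to 19.5 CPM in control and 72.6 to 89.0 CPM in cKO samples, while the Vegfa and Hif1a groups are not separated by the test.

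Several members with large effects in culture were not called in cartilage. Vegfa was at 382, 327, 426 and 290.4 CPM in control and 337, 282, 302 and 276 CPM in cKO samples (log2 fold change −0.25, SE 0.144, adjusted p 0.334). Hif1a was at 423, 360.1, 469 and 398 CPM in control and 354, 316, 348 and 353 CPM in cKO samples, and although every cKO sample was below every control sample the difference did not pass (log2 fold change −0.27, SE 0.126, adjusted p 0.234). Egln3 was at 14.3, 11.1, 26.6 and 22.7 CPM in control and 14.3, 6.12, 8.03 and 14.6 CPM in cKO samples (log2 fold change −0.75, SE 0.302, adjusted p 0.16). Bhlhe40, at 322, 285, 337 and 422 CPM in control and 214, 278, 319 and 252 CPM in cKO samples, had −0.36 (SE 0.141, adjusted p 0.151).

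Vhl was at 19.5, 15.4, 19.3 and 27.3 CPM in control and 12.6, 17.5, 13.4 and 17.2 CPM in cKO samples (log2 fold change −0.44, SE 0.238, adjusted p 0.291). Cited2, with 19.5, 19.6, 18.3 and 31.4 CPM in control and 22.7, 40.2, 31.2 and 25.8 CPM in cKO samples, gave 0.39 (SE 0.237, adjusted p 0.357). Ak4 had 44.3, 55.5, 63.3 and 45.8 CPM in control and 46.2, 41.1, 24.1 and 31.9 CPM in cKO samples (log2 fold change −0.54, SE 0.194, adjusted p 0.116). All 3 pairs of groups overlap. Stc2 had 24.02, 22.2, 29.4 and 14.9 CPM in control and 35.3, 18.4, 21.4 and 23.3 CPM in cKO samples (log2 fold change 0.16, SE 0.252, adjusted p 0.749). Car9 had 32.3, 29.01, 33.02 and 29.3 CPM in control and 43.7, 13.99, 29.4 and 51.7 CPM in cKO samples (log2 fold change 0.17, SE 0.273, adjusted p 0.75). For both of these the groups overlap and the direction turned when a single library was left out (control replicate 4 or cKO replicate 1 for Stc2, and cKO replicate 1 or 4 for Car9). Adm, at 4.27 to 9.17 CPM in control and 1.75 to 8.03 CPM in cKO samples, did not pass the filter on low counts, nor did Hif3a (0 counts in every control and at most 1 in any cKO library) or Ankrd37. Tested with no filter, none of the 3 was called (adjusted p 0.669 to 0.982).

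The cartilage level of Bnip3 depended on the count table. It was at 5.25, 11.1, 14.7 and 3.09 CPM in control and 6.72, 6.997, 8.92 and 9.48 CPM in cKO samples in the whole-number counts (log2 fold change 0.041, SE 0.424, adjusted p 0.965), and at 142 ± 4.71 and 99.5 ± 22.1 CPM in the estimated counts of the same libraries, at −0.52 (adjusted p 0.0549). Its control level was 16.7-fold higher in the estimated counts. For Bnip3l, Car12, Higd1a and Fam162a that ratio was 2.56, 2.41, 2.24 and 1.92, and for the other 26 members with a whole-number level it was 0.78 to 1.3. The cause was not tested.

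Other HIF targets were described by lists chosen for this report. Their day 3 values include cKO replicate 4, and its part in them was not tested. Of 21 glycolytic and glucose genes, 4 were higher and 15 lower at day 0 (median −0.48 on the log2 scale, 0.01 over all genes), and 9 were higher and 1 lower at day 3 (median 0.37). At day 0, 64.5% of all genes were called, 33.0% higher and 31.6% lower. Calls at day 3, 10 of 21, stand beside 48.1% of all genes called, 25.5% higher and 22.6% lower. The genotype effect on these 21 genes was higher at day 3 than at day 0 for 12 and lower for 0. Over all genes the difference was called higher for 9.94% and lower for 6.89%. Slc16a3, the lactate exporter, went from −0.58 (adjusted p 0.00616) to 2.18 (adjusted p 0.0007), a difference of 2.74 (adjusted p 0.00103). Pfkfb3, which sets the flux of glycolysis, went from −0.79 (adjusted p 1.03e-05) to 0.68 (adjusted p 0.0387), and Pfkl, a phosphofructokinase, from −0.97 (adjusted p 1.05e-05) to 0.37 (adjusted p 0.135). In cartilage 4 of 17 tested were lower and 0 higher (median −0.43), where 3.04% of all genes were called lower and 3.15% higher. Among the 4 was the enolase gene Eno1, at −0.84 (adjusted p 0.00174).

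Of 29 further targets found in the culture tables and 28 in that of cartilage, 11 were higher and 11 lower of 26 tested at day 0, 8 higher and 5 lower of 24 at day 3, and 1 higher and 1 lower of 24 in cartilage, with medians of −0.10, 0.37 and −0.15. Over all genes tested, 64.5% were called at day 0, 48.1% at day 3 and 6.19% in cartilage. Among these targets the difference between the days was higher for 6 and lower for 0 of 26. Over all genes it was called higher for 9.94% and lower for 6.89%. Ero1l, an oxidase of the endoplasmic reticulum, went from −0.77 (adjusted p 1.74e-05) to 0.40 (adjusted p 0.278), and the collagen prolyl hydroxylase P4ha2 from −0.28 (adjusted p 0.0065) to 0.60 (adjusted p 0.000803). Plod2, a collagen lysyl hydroxylase, was lower on both days, at −0.51 (adjusted p 2.29e-06) and −0.73 (adjusted p 0.000802). Trf, which encodes the iron carrier transferrin, was higher in all 3 settings, at 0.59 (adjusted p 0.0087), 2.38 (adjusted p 0.000178) and 3.49 (adjusted p 9.85e-06) in cartilage.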

How the data were processed

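RNA was sequenced from 14 chondrocyte cultures and 8 cartilage samples of mouse. For the cultures the authors deposited estimated counts per gene, not all whole numbers, which were rounded here; the libraries came from a stranded kit, per the labels' protocols, and the aligner and counter are not given in the sources used here. For cartilage the authors deposited whole-number counts per gene (main values) and estimated counts (alternative) from a barcoded 3′ method with molecular identifiers, per the labels' protocols. The submitters' processing notes name UMI-tools 1.1.1, Trim Galore 0.6.7, HISAT2 2.2.1, featureCounts 2.0.1 and DESeq2 1.34.0 for cartilage and GRCm38 for all samples. Multiply mapped or overlapping reads could be split differently by the 2 kinds of count.

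Genes were tested with edgeR 4.0.16 in R 4.3.3 (TMM scaling, filterByExpr at 10 counts and 15 in total, quasi-likelihood test, Benjamini-Hochberg over all genes tested, called under an adjusted p of 0.05), within each setting, adjusting for sex in cartilage, and on all 14 cultures for differences and changes between days. SE was taken as |log2 fold change|/√F. CPM uses TMM-scaled library sizes of each table. The fits were tested on simulated data. P-values measure the spread between the labelled replicates. Exon lengths and gene overlaps come from GENCODE M21 (GRCm38), and the coordinates of the promoter windows from RefSeq. A list of gene names held 34582 of 34866 identifiers for the cultures and 23884 of 23911 for cartilage. Unused columns of per-sample values numbered 0.

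The members and lists were chosen with earlier results of these data known. Values in every sample are given for Hif1a, Epas1, Vhl and Egln3 and for each member called in a genotype comparison with an absolute log2 fold change of at least 1, called in all 3 comparisons, or called in the test of the difference with at least 1.5. Single genes of other lists were picked as examples after their values were seen. Alternatives were DESeq2's size factors, no filter, the DESeq2 1.42.0 test, a replicate block, 1 fit of all cultures, each genotype's cultures alone for the day change, no sex covariate, the estimated counts, and each library left out.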

Additional observations from a re-analysis of the deposited data

Results flagged for a closer look

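In 60 groups of 4 samples tested (15 genes in the 4 groups of that size), 3 held a library far from the other 3, where chance gives about 1 in 20. Epas1 was at 52.01 CPM in day 3 cKO replicate 4, against 7.72 to 11.1 CPM in the other 3. Cited2 was at 31.405 CPM in cartilage control replicate 4, against 18.3 to 19.6 CPM, and leaving it out gave a log2 fold change of 0.64 (adjusted p 0.179). Hif1a was at 315.73 CPM in cartilage cKO replicate 2, against 348 to 354 CPM, and leaving it out gave a log2 fold change of −0.24 (adjusted p 0.322).

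The genotype effect differed between day 3 and day 0 for 10 members, by 2.2051 for Egln3, 1.8346 for Vegfa, 1.8146 for Bnip3, 1.6398 for Bhlhe40, 1.5263 for Car12, 1.1285 for Rora, 1.1153 for Hif1a, 0.7547 for Egln1, 0.7181 for Higd1a and 0.3585 for Bnip3l on the log2 scale. Day, BMP2, culture time and count table changed together, and summed muscle markers in cKO cultures went from 41.4 to 53.0 CPM at day 0 to 167 to 2012 CPM at day 3. Their part in these differences was not tested.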

How the results depend on the processing

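Every called member kept its direction under all alternatives run. Called in each of them were 16 of 25 members at day 0, 11 of 18 at day 3, 3 of 4 in cartilage, 6 of 10 for the difference between the days, 17 of 19 for the change in control and 21 of 24 for that in cKO cultures. The 1 fit of all 14 cultures gave 16 members at day 0 in place of 25, and 6260 of all genes in place of 10023. At day 3 that fit gave 23 members in place of 18, and 8622 of all genes in place of 6693. No filter on low counts gave 14 members at day 3 (30.2% of all genes called) and 6 in cartilage (4.37% of all genes called). Leaving out 1 library gave 23 to 25 members at day 0, 11 (without control replicate 2) to 21 (without cKO replicate 4) at day 3, 3 to 5 in cartilage, 6 to 17 for the difference, 17 to 22 for the change in control and 22 to 27 for that in cKO cultures. Same-numbered samples did not all deviate together (correlations of −0.00273, −0.0261 and 0.246 at day 0, −0.151, −0.0994, −0.144 and −0.0779 at day 3, and 0.262, 0.0837, −0.0775 and 0.119 in cartilage), and not every sample correlated best with its own number. The numbers were thus not read as pairs, and a replicate block gave 25, 12, 4, 6, 17 and 23 members in the order above, 6 in place of 10 for the difference. Over all genes, that block called 1554 in place of 2509 for the difference, and in cartilage no filter on low counts called 1044, DESeq2 357 and fits without 1 library 362 to 630 in place of 544. Values that turned direction were all of members not called. Epas1 had −0.35 under the replicate block at day 3 (−1.02 to 0.37 with 1 library left out), −0.08 under the block for the control change (−0.08 to 0.36), −1.32 to 0.0397 for the difference and −1.14 to 0.20 for the cKO change with 1 library left out. Bnip3 in cartilage had −0.0075 with no filter, −0.044 with DESeq2, −0.52 in the estimated counts and −0.46 to 0.45 with 1 library left out. With 1 library left out, Vhl had −0.0279 to 0.0934 for the difference, Bhlhe41 −0.19 to 0.0118 and Ak4 −0.21 to 0.11 at day 3, and Stc2 −0.0754 to 0.35 and Car9 −0.0895 to 0.44 in cartilage. The cause was not tested. In cartilage, 3 members did not pass the filter on low counts.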

Other observations

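Several hypoxia targets are shared with other stress pathways, and the genes of those pathways were counted beside them. Day 3 values of these lists include cKO replicate 4, and its part in them was not tested. The list for ATF4, the factor of the integrated stress response, held 11 genes, Atf4 itself beside its targets and other stress genes. Of these, 0 were higher and 11 lower in cKO cultures at day 0 (median −0.62 on the log2 scale). Over all genes tested there, 33.0% were called higher and 31.6% lower. At day 3, 0 were higher and 8 lower (median −0.83), where 25.5% of all genes were called higher and 22.6% lower. Ddit3, a stress-induced factor linked to cell death, had −1.71 (adjusted p 1.06e-06) and −1.47 (adjusted p 6.75e-05), and Trib3, a pseudokinase, −0.92 (adjusted p 2.51e-05) and −1.51 (adjusted p 0.000125). Stc2 and Vegfa are known as targets of this response as well as of HIF, and Stc2 fell on both days while Vegfa fell at day 0 and rose at day 3. In cartilage 3 of 9 tested were higher and 0 lower, where 3.15% of all genes were called higher and 3.04% lower. The 3 were Trib3, at 1.701 (adjusted p 0.00133), Atf5, at 1.46 (adjusted p 7.37e-06), and Asns, at 1.07 (adjusted p 8.71e-05).

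Of 9 targets of NRF2, the factor of the oxidative stress response that also drives Hmox1, 7 were higher and 1 lower at day 0 (median 0.68). Over all genes tested there, 64.5% were called, 33.0% higher and 31.6% lower. At day 3, 5 were higher and 0 lower (median 0.86), where 48.1% of all genes were called, 25.5% higher and 22.6% lower. In cartilage 0 of 6 were called, where 6.19% of all genes were. Gclc, which makes glutathione, had 0.69 (adjusted p 4.94e-05) and 1.49 (adjusted p 0.000325), and Txnrd1, a thioredoxin reductase, 0.93 (adjusted p 8.54e-05) and 0.97 (adjusted p 0.0157). Slc7a11, the cystine transporter counted in both lists, was the 1 that fell at day 0, at −0.36 (adjusted p 0.000433), and had 1.401 (adjusted p 0.0506) at day 3.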
